A study of Mus musculus with 4 samples.

Results

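The genes described here encode 10 mouse enzymes and helpers that build, branch, cap or trim the sialylated sugars of the B cell surface: C1galt1, C1galt1c1, St3gal1, Gcnt1, St3gal4, St3gal6, St6gal1, Cmas, Cmah and Neu1. They were chosen by name because the cells of the study were sorted on peanut agglutinin (PNA), and every probe set that the platform annotation assigns to one of these symbols alone was taken, which gave 27 of the 45101 probe sets on the array and 10 of 18194 genes. The study hybridised 4 single-colour Affymetrix arrays, 1 for each of 4 groups. Germinal centre (GC) B cells, sorted as B220+PNA+Fas+, were taken from 2 sources in adult mice of the strain C57BL6/J wild type. The first was peripheral lymph nodes (pLN) after immunization with TNP-KLH, a hapten on a carrier protein, given with incomplete Freund's adjuvant. The other was Peyer's patches (PP), follicles in the wall of the gut, of mice left without treatment. Naive B cells, sorted as B220+PNA-Fas-, came from the same pLN and PP sources, and each array held RNA pooled from 3 to 5 mice.

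PNA is a plant lectin that binds galactose joined to N-acetylgalactosamine, the core 1 O-glycan, as long as no sialic acid covers it. C1galt1 makes core 1 with the help of its chaperone C1galt1c1 (Cosmc), St3gal1 caps it with sialic acid, and Gcnt1 adds a branch that turns core 1 into core 2. GC B cells are known for strong PNA binding and for loss of the modified sialic acid that Cmah makes, and St6gal1 makes the sialylated ligand of the B cell lectin CD22. Surface glycans themselves were not measured here, and PNA binding defined the groups.

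Signals are in array units, with the trimmed mean of every array set to 500. A signal was called detected where it exceeded the 90th percentile of probe sets of genes of other tissues on its array, a level of 202 (GC pLN), 414 (GC PP), 184 (naive pLN) and 228 (naive PP). These levels rested on few probe sets: without Gh and Prm1 in that list they were 32.6 (GC pLN), 69.4 (GC PP), 76 (naive pLN) and 108 (naive PP). Each statement below that a signal was under the level, and each bound of at least a given fold, holds for the first set of levels. The naive arrays carried a strong 3' bias, a sign of RNA quality, with a 3'/5' ratio of the Gapdh controls of 1.48 and 1.67 on the GC pLN and GC PP arrays, against 18.7 and 96.4 for naive pLN and naive PP. This bias moved with cell type, bears on every GC-naive value below, and its part in them was not tested. Signals of the GC and naive marker lists went with the labels. All 7 tested probe sets of the GC marker list were higher in GC cells and all 7 of the naive list were lower. Of the GC list, only 1 probe set exceeded the level on the naive arrays, that of Fas, a sort marker. The others entered the test through the GC arrays alone, so their direction followed from the filter and is no check of the labels. Fas had signals of 4266 and 4980 in pLN and PP GC cells, against 515 and 403 in naive cells. Summed signals of 10 T cell marker probe sets were 552 and 1289 in pLN and PP GC cells, against 1168 and 695 in naive cells, and 9 of the 10 were under the level on all 4 arrays. The other, a probe set of Cd8a, read 127 and 273 in GC cells, against 548 and 388 in naive cells, and was called lower in GC cells (limma adjusted p = 0.0165). The 7 plasma cell marker probe sets summed to 15987 and 20479 in GC cells, against 4934 and 1917 in naive cells, but did not move together. Jchain read 9253 and 10618 in GC cells, against 1707 and 827. The brightest Sdc1 probe set read 499 and 2024, against 904 and 480, and was not called. Prdm1 exceeded the level only on GC PP (1007). The 9 epithelial probe sets summed to 483 and 1697 in GC cells, against 1251 and 6409, with Krt8 at up to 1666 on naive PP and at most 128 on GC PP. For macrophages the sums over 8 probe sets were 3250 and 4397 in GC cells, against 1034 and 949 in naive cells, with Apoe at 2528 and 3561, against 304 and 492, Lyz2 at 244 and 369, against 42.3 and 50.3, and Cd68 at 346 and 321, against 259 and 89. Adgre1 was above the level only on naive pLN (323), Cd14 read at most 5.2, and Csf1r was under the level throughout. The part of these cells in the values below was not tested.

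GC and naive cells were compared over all 4 arrays with limma, with tissue as a block. Of the 27 probe sets, 15 (from 8 genes) exceeded the level in both tissues of GC cells, of naive cells or of both, and were tested. Of the other 12, 5 were detected on 1 or more arrays without meeting that condition and 7 on none. Among the 15, 5 were called, beside 55.5% of all probe sets tested: 2 were called higher in GC cells (C1galt1 1428490_at and Cmah 1440517_x_at) and 3 lower (St3gal1 1418946_at and 1441216_at, St3gal6 1454246_at), at an adjusted p under 0.05. Over all 15398 probe sets tested, 32.3% were called higher and 23.2% lower, so the shares of these enzymes, 13.3% and 20%, lay below or near the background. The median log2 fold of the 15 was -0.09, beside 0.11 for all tested probe sets. Each p-value holds nothing on variation between mice. With 1 residual degree of freedom and an infinite prior, its error was the spread of the GC-naive fold between the tissues. This error was pooled over probe sets of like signal, with no weight on the probe set's own spread. With each probe set's own spread alone, 0 probe sets were called in limma after adjustment. Of the 15, 1 was higher and 2 were lower in that fit at an unadjusted p under 0.05. The share of all probe sets at that cut is not given here, so this count is a description. In pooled bulk RNA, fewer cells that express a gene and less RNA per cell cannot be told apart.

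**Figure D1:**
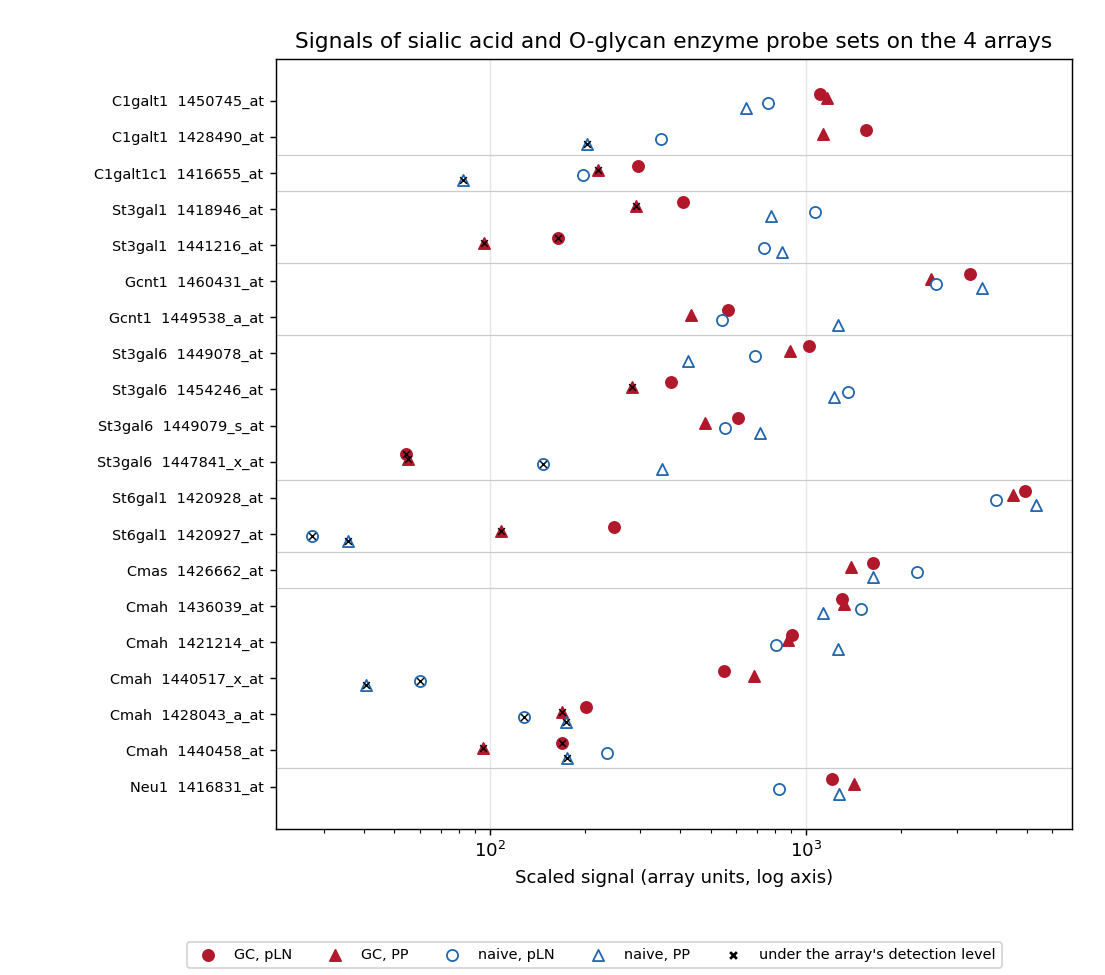
Scaled signal (array units, log axis) of the 20 enzyme probe sets detected on at least 1 array, with 1 point for each of the 4 arrays; crosses mark signals under the array's detection level. Both St3gal1 probe sets lay lower on the GC than on the naive arrays, and both C1galt1 probe sets shown lay higher.

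The core 1 synthase C1galt1 was measured by a pair of probe sets above the level. Probe set 1428490_at read 1555 and 1138 in pLN and PP GC cells, against 349 and 203 in naive cells, the last of these under the level. The groups did not overlap, and the log2 fold was 2.23 ± 0.44 (limma adjusted p = 2.5e-06), or 2.15 with the signal under the level set to it. Here and below, ± gives the SE of the fit, which comes from the pooled error and not from the probe set's own spread. Without the GC pLN array the log2 fold was 2.01. The second probe set, 1450745_at, read 1111 and 1166 in GC cells, against 762 and 645 in naive cells, again without overlap, but the difference of 0.68 ± 0.43 was not called (limma adjusted p = 0.167). It was 0.8 when the naive pLN array was left out. The size of the C1galt1 difference therefore depended on the probe set. Another probe set, 1422772_at, was under the level on all 4 arrays, and was called higher in GC cells with no filter or without Gh, Prm1 and Mbp in the background list.

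C1galt1c1, the chaperone without which C1galt1 does not fold, did not meet the condition for the test. Its probe set 1416655_at read 295 and 220 in pLN and PP GC cells, against 197 and 82.3 in naive cells, and exceeded the level only on the 2 pLN arrays. Its other probe set read between 10.1 and 19.1 on the 4 arrays, all under the level. With no filter the pair was tested and not called. With either reduced background list 1416655_at was tested and not called.

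The start-site sequence of C1galt1 is shown as an example of a gene with a called probe set. Both start sites of St3gal6, a gene whose probe sets gave unlike values (below), are shown with it. They run from 250 bases before to 50 bases after the start, 5' to 3' on the gene's strand, from RefSeq (GRCm38.p6), and lie at chr6:7844974-7845273 (+ strand) for C1galt1 and at chr16:58524204-58524503 and chr16:58523377-58523676 (- strand) for St3gal6. Capitals mark the GC box GGGCGG on either strand, overlapping matches included.

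C1galt1: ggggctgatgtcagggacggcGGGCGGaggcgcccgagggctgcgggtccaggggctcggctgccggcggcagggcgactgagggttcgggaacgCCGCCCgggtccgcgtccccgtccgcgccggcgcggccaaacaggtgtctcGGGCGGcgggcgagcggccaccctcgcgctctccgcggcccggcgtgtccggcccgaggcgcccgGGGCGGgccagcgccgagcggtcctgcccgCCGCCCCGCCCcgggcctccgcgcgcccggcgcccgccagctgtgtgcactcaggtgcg
St3gal6, start site 1: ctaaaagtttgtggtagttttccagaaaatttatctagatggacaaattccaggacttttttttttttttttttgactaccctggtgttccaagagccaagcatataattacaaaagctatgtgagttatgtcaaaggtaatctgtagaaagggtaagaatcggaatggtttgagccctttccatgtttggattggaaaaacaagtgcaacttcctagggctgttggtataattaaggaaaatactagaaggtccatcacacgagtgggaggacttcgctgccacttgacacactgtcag
St3gal6, start site 2: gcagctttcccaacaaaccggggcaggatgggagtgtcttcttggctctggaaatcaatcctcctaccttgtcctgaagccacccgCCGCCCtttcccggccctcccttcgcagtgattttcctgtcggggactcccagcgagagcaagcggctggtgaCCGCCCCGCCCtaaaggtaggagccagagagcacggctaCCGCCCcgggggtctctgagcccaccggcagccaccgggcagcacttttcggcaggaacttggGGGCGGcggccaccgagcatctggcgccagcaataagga

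The C1galt1 window held 6 GC boxes and 52 CG dinucleotides, the most of the 14 windows matched to these genes. Cmah, which also had a called probe set, has 2 windows that are not shown. Each held 0 GC boxes, 0 E-boxes (CAGGTG) and 3 CG dinucleotides. The first St3gal6 window held 0 GC boxes and 3 CG dinucleotides, and the second held 5 and 20. Over 32851 windows of the same length, 35.7% held a GC box and the median number of CG dinucleotides was 7. The E-box CAGGTG, searched on both strands, occurred 2 times in the C1galt1 window and in neither St3gal6 window, and in 20.2% of all windows. RefSeq windows were matched for 8 of the 10 genes (14 windows); those of St3gal1 and C1galt1c1 are not shown. These matches describe letters only, and no binding was measured.

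St3gal1, the sialyltransferase that caps core 1, was lower in GC cells by both of its probe sets. Probe set 1418946_at read 409 and 290 in pLN and PP GC cells, against 1073 and 776 in naive cells. The GC signals were lower in each tissue, with ratios of naive to GC signal of 2.62 in pLN and 2.68 in PP, and the GC PP signal lay under its level. The log2 fold was -1.35 ± 0.44 (limma adjusted p = 0.00557), or -1.11 with that signal set to the level. It was -1.58 without the GC pLN array and -1.12 without the GC PP array. Probe set 1441216_at read 165 and 95.8 in GC cells, both under the level, against 739 and 839 in naive cells. The naive signals were at least 2.72-fold higher than the GC signals, a bound that sets each GC signal at its array's level. The fitted log2 fold of -2.45 ± 0.45 (limma adjusted p = 4.31e-07) rests on GC signals not above background, and was -1.37 with these set to the level.

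The GC-naive log2 ratio of signals of C1galt1 was then set against that of St3gal1, over the 4 pairings of their tested probe sets. In pLN the 2 pairings with St3gal1 1418946_at, in which all signals were above the level, gave differences of 3.55 (C1galt1 1428490_at) and 1.94 (C1galt1 1450745_at). The 2 pairings with St3gal1 1441216_at in pLN and all 4 in PP include signals under the level. With these set to the level, the difference was at least 2.42 and 4.03 in pLN and at least 1.76 to 3.34 in PP. The 3' bias of the naive arrays can act unequally on probe sets, its part was not tested, and these values are descriptions.

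**Figure D2:**
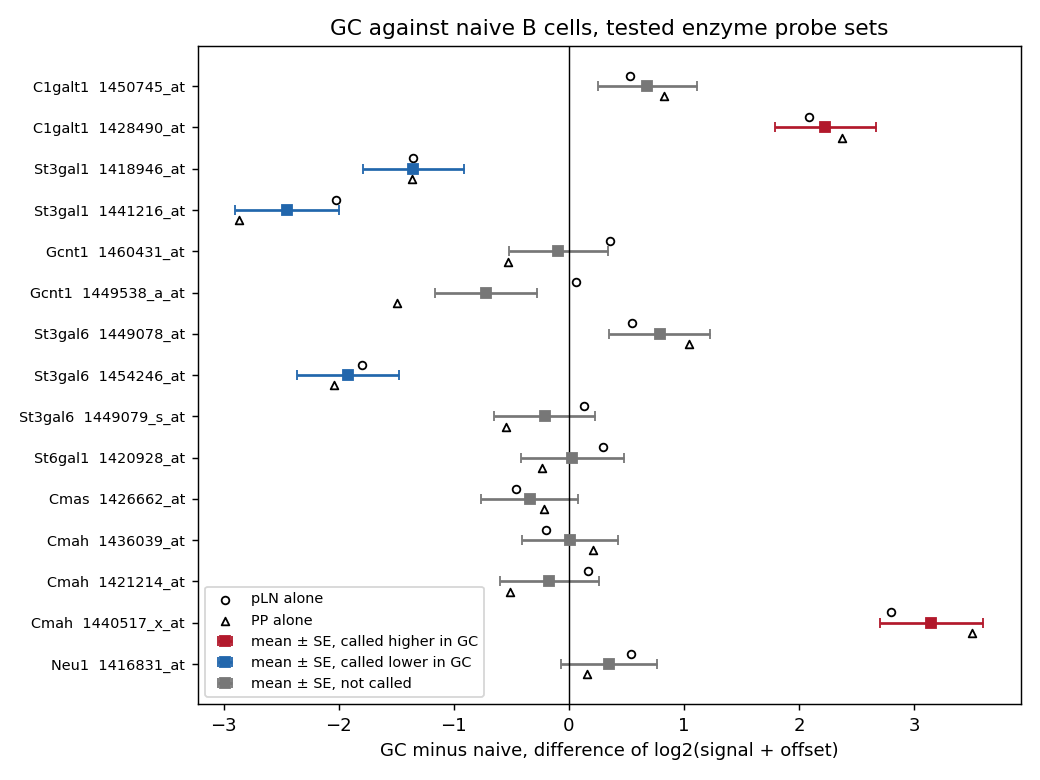
GC minus naive difference of log2(signal + offset) for the 15 tested probe sets; squares are the limma estimate over both tissues with its SE, and small circles and triangles are pLN and PP alone. St3gal1 lay left of 0 by both probe sets, and other genes with several probe sets (C1galt1, St3gal6, Cmah) spread widely.

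Gcnt1 makes the core 2 branch. Its probe set 1460431_at read 3308 and 2492 in pLN and PP GC cells, against 2577 and 3601 in naive cells, so the groups overlapped and the tissues pointed opposite ways (-0.09 ± 0.43, limma adjusted p = 0.88). Probe set 1449538_a_at read 566 and 435 in GC cells, against 542 and 1263 in naive cells. Its highest value was that of naive PP, and its difference of -0.72 ± 0.44 was not called (limma adjusted p = 0.155). It was called lower in GC cells with quantile normalization (-1.15, limma adjusted p = 0.0233) and after cyclic loess (-1.14, limma adjusted p = 0.0105). Without the naive pLN array the difference was -1.31.

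The remaining sialyltransferases act mainly on galactose of N-glycans and longer chains. St3gal4 has 1 probe set, which read 12 and 14.1 in pLN and PP GC cells, against 19.3 and 7.03 in naive cells, and was under the level on every array. St3gal6 has 5, and they disagreed. Probe set 1454246_at read 374 and 283 in GC cells, the second under the level, against 1362 and 1231 in naive cells. It was called lower in GC cells, with a log2 fold of -1.92 ± 0.44 (limma adjusted p = 5.08e-05). The fold was -1.66 with that signal at the level and -1.73 without the GC PP array.

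Probe set 1449078_at of St3gal6 read 1022 and 893 in pLN and PP GC cells, against 691 and 423 in naive cells. These groups did not overlap and GC cells were the higher, although the log2 fold of 0.79 ± 0.44 was not called (limma adjusted p = 0.109). Without the naive pLN array it was 1.14. Probe set 1449079_s_at read 610 and 481 in GC cells, against 554 and 716 in naive cells, and overlapped (-0.21 ± 0.44, limma adjusted p = 0.704). Of the other St3gal6 probe sets, 1447841_x_at exceeded the level only on naive PP, at 351, and 1443740_at did so nowhere. The first of these was called lower in GC cells with no filter and with either reduced background list. No single direction can be given for St3gal6 from these probe sets.

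St6gal1, the enzyme behind the CD22 ligand, was measured by probe sets that differed widely in signal. Its probe set 1420928_at read 4938 and 4543 in pLN and PP GC cells, against 4013 and 5340 in naive cells. The groups overlapped and the difference was 0.03 ± 0.45 (limma adjusted p = 0.958), with -0.11 at the deposited common median, 0.46 with quantile normalization and 0.58 after cyclic loess, none of them called. Its other probe set, 1420927_at, read 247 and 109 in GC cells, against 27.5 and 35.7 in naive cells. The GC signals were the higher ones, but only GC pLN exceeded its level, so this probe set was not tested. It was called higher in GC cells where the filter on dim probe sets was dropped, and where Gh and Prm1 were taken out of the background list. As a gene, by the mean of its probe sets, St6gal1 was also called higher.

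Cmas activates sialic acid for transfer, and its 1 probe set read 1634 and 1395 in pLN and PP GC cells, against 2252 and 1633 in naive cells. GC pLN lay just above naive PP, and the difference of -0.34 ± 0.42 was not called (limma adjusted p = 0.501). Cmah, which converts Neu5Ac to Neu5Gc, has 6 probe sets. The brightest, 1436039_at, read 1304 and 1322 in GC cells, against 1500 and 1137 in naive cells (0.01 ± 0.42, limma adjusted p = 0.991). Probe set 1421214_at read 907 and 881 in GC cells, against 803 and 1268 in naive cells (-0.17 ± 0.43, limma adjusted p = 0.752). In both, the GC values lay between the naive ones.

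Probe set 1440517_x_at of Cmah behaved unlike these. It read 550 and 688 in pLN and PP GC cells, against 60.3 and 40.6 in naive cells, which were both under the level. The GC signals were at least 3.01-fold higher than the naive ones; the fitted log2 fold was 3.15 ± 0.45 (limma adjusted p = 5.83e-11), but rests on naive signals not above background, and was 1.49 with the naive signals set to the level. The suffix _x marks a probe set whose probes can match other transcripts, so this signal is uncertain as a measure of Cmah. Of the other Cmah probe sets, 1428043_a_at exceeded the level only on GC pLN (202) and 1440458_at only on naive pLN (235), and 1447019_at nowhere. Neither of the brighter probe sets gave a called decrease of Cmah in GC cells.

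Neu1, the lysosomal sialidase that removes sialic acid, read 1214 and 1422 in pLN and PP GC cells, against 826 and 1272 in naive cells, by its probe set 1416831_at. The groups overlapped slightly, and 0.35 ± 0.42 was not called (limma adjusted p = 0.492). Its other probe sets were under the level on all 4 arrays, between 36.1 and 134.

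Within each tissue there was 1 array against 1, with no replicate check. In pLN, 3 of 19 enzyme probe sets above the level on either array were at least 2-fold higher in GC cells (C1galt1 1428490_at, Cmah 1440517_x_at and St6gal1 1420927_at) and 3 were lower (both of St3gal1 and St3gal6 1454246_at), against 30.1% higher and 20.1% lower among all probe sets so compared. In PP, 3 of 16 were at least 2-fold higher and 5 lower, against 35.8% and 26.8% of all. The 3 higher ones were C1galt1 1428490_at, Cmah 1440517_x_at and St3gal6 1449078_at, and the 5 lower ones were the 3 of pLN with St3gal6 1447841_x_at and Gcnt1 1449538_a_at. Of the 15 tested probe sets, 9 had GC-naive folds of 1 sign in both tissues and 6 had opposite signs. The share of opposite signs over all tested probe sets is not given here, so this count is a description.

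PP of untreated mice was then set against pLN of immunized mice, so that tissue and immunization cannot be told apart. In GC cells, 0 of 17 enzyme probe sets were higher in PP by 2-fold or more and 1 was lower, against 2.04% and 1.64% of all probe sets. The lower one was St6gal1 1420927_at, at 109 in PP, against 247 in pLN. Of the 20 probe sets detected somewhere, 15 read lower in PP than in pLN in GC cells, beside 50.2% of the 18521 probe sets detected somewhere. This count is a description of 1 array against 1, and all but St6gal1 1420927_at differed by less than 2-fold. St3gal1 1418946_at read 290 in GC cells of PP, against 409 in pLN, and C1galt1 1428490_at read 1138, against 1555.

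In naive cells, 2 of 17 enzyme probe sets were higher in PP by 2-fold or more and 1 was lower, against 8.82% and 18.9% of all. Gcnt1 1449538_a_at read 1263 in naive cells of PP, against 542 in pLN, a ratio of 2.33. St3gal6 1447841_x_at read 351, against 148 in pLN, where it was under the level. C1galt1c1 1416655_at read 82.3 in PP, under the level, against 197 in pLN. The 3'/5' ratio of the naive PP array was the higher of the naive arrays, as given above. None of these differences was tested.

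**Figure D3:**
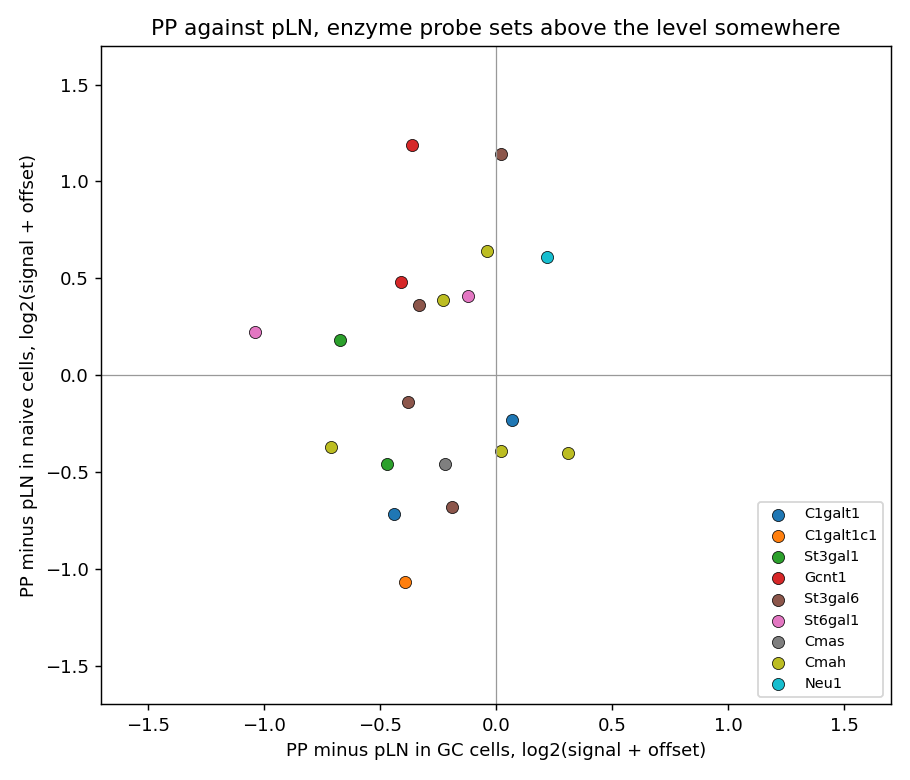
PP minus pLN difference of log2(signal + offset) in GC cells (horizontal) and in naive cells (vertical) for the 20 enzyme probe sets detected on at least 1 array, coloured by gene. Differences in GC cells ran from -1.04 to 0.31. Of the 20, 7 were lower in PP in both cell types, beside 31.8% of the 18521 probe sets detected somewhere.

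The wider pathway was read from 7 lists of 71 genes, 67 of which had probe sets, with 58 probe sets of 41 genes tested in the same limma fit. Of these, 17 were called higher in GC cells, 16 lower and 25 not called, 29.3% and 27.6% beside the 32.3% and 23.2% of all probe sets. These counts changed when 1 array was left out, as did the shares called over all probe sets. These lists were not chosen blind to earlier results of these arrays, and probe sets of 1 gene often differed.

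Sialic acid supply had 3 probe sets higher, 1 lower and 1 not called of 5 (median log2 fold 1). Gne, the entry enzyme of sialic acid synthesis, read 328 and 345 in pLN and PP GC cells, against 1729 and 2424 in naive cells, and fell by 2.53 on the log2 scale (limma adjusted p = 3.83e-08). The GC PP signal was under the level. Nanp, a phosphatase of the same route, read 878 and 681 in GC cells, against 158 and 84.5 in naive cells, at least 3.78-fold higher in GC cells. Nans, the synthase, rose by 1.52 ± 0.45 by 1 probe set and differed by 0.24 by another, and the CMP-sialic acid transporter Slc35a1 rose by 1 (limma adjusted p = 0.0465).

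Of 12 probe sets of other sialyltransferases, 5 were higher, 0 lower and 7 not called (median 0.45). The 5 covered 3 genes. St8sia6, which joins sialic acid to sialic acid, accounted for 3 of them, with log2 folds of 1.86 to 2.47 against naive signals under the level. Of these, 1456440_s_at had the largest bound: it read 334 and 521 in pLN and PP GC cells, against 61 and 68.5 in naive cells, at least 2.04-fold higher. St6galnac6 rose by 1.37 ± 0.45, and St3gal2, a close relative of St3gal1 that also uses the core 1 disaccharide, by 1.03 ± 0.45, where it read 629 and 494 in GC cells, against 273 and 250 in naive cells. Its adjusted p of 0.0406 in limma was near the threshold. Of enzymes that add sialic acid to the GalNAc of O-glycans, St6galnac2 differed by -0.45 and the probe sets of St6galnac4 by -0.35 and -0.19, none of them called.

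The GalNAc transferases, which start O-glycans on proteins, had 3 probe sets higher, 3 lower and 6 not called of 12 (median -0.02). Galnt6 read 503 and 336 in pLN and PP GC cells, against 3470 and 4974 in naive cells, and fell by 3.27 on the log2 scale (limma adjusted p = 2.03e-13). Galnt10 and Galnt1 were each called lower by 1 probe set (-1.96 and -1.67) and not by another (-0.57 and 0.14). Galnt7 was called higher by both tested probe sets, by at least 2.13-fold for 1426908_at and by 0.99 ± 0.45 on the log2 scale for 1452232_at, whose adjusted p in limma of 0.0491 was near the threshold. The GC PP signals of Galnt6 and Galnt10 were under the level.

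Of 11 branching and extension probe sets, 2 were higher, 3 lower and 6 not called (median -0.3). Gcnt3, another core 2 branching enzyme, read 681 and 739 in pLN and PP GC cells, against 25.4 and 41.2 in naive cells, at least 3.47-fold higher. Slc35a3, a UDP-N-acetylglucosamine transporter, was at least 8.1-fold higher by 1 probe set, while another differed by 0.63 and was not called. B3gnt8, which extends N-glycans, was at least 3.41-fold lower, and B3gnt5 was lower by 1 probe set (-1.29) and not called by the other (0.62).

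Both tested probe sets of the sialidase list were lower: Glb1, a lysosomal galactosidase, fell by 1.62 on the log2 scale, and Ctsa, which protects Neu1 in the lysosome, by 1.12. Of 9 probe sets of lectins, 6 were lower, 1 higher and 2 not called (median -1.16). Lgals8, a galectin, read 1268 and 1045 in pLN and PP GC cells, against 5705 and 5978 in naive cells (-2.32 ± 0.42, limma adjusted p = 3.3e-07). Lgals3 read 180 and 60.1 in GC cells, both under the level, against 1103 and 283 in naive cells, and was called lower; in PP its naive signal lay under the GC level, so that only pLN bounds the fold. Cd22, the sialic acid lectin of B cells, was called lower by 1 probe set (-1.96) and not by the other (0.17), while Lgals1 was called higher by 1 (1.81) and not by the other (0.22). Among 7 probe sets of proteins that carry O-glycans, 3 were higher (Cd44 with 2 and Ptprc with 1), 1 was lower and 3 were not called (median 0.92). Selplg fell by 2.12 on the log2 scale, to 344 and 416 in GC cells, against 1909 and 1549 in naive cells. Ptprc, which encodes B220, gave 2.52 and -0.2 by its 2 tested probe sets, and Spn (CD43) was not called (0.39).

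**Figure D4:**
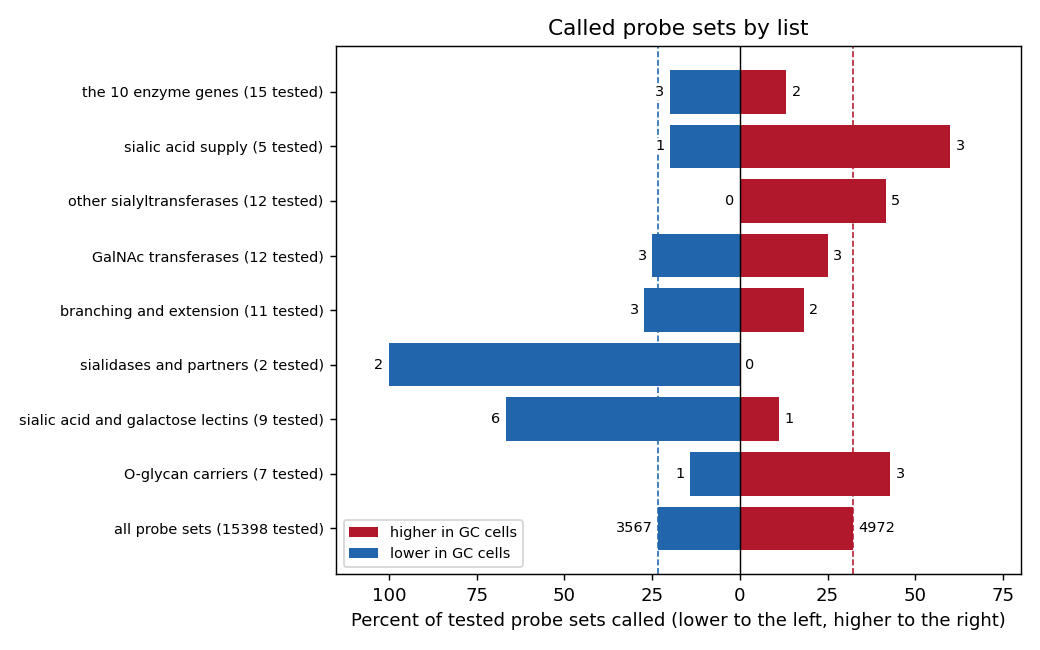
Percent of tested probe sets called lower (left) and higher (right) in GC cells for the 10 enzyme genes, the 7 wider lists and all 15398 tested probe sets; numbers at the bars are counts and dashed lines the shares over all probe sets. The 10 enzyme genes, at 13.3% higher and 20% lower, lay under both lines, and the lectins had 66.7% lower.

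The probe set of another gene nearest in pattern to St3gal1 1418946_at was that of H2-Oa, a subunit of the MHC class II regulator DO, by the Euclidean distance of log2 signals centred on their mean over the 4 arrays (0.036), followed by those of Mfsd1 (0.058) and Fam43a (0.069). Those nearest to Cmah 1436039_at were Zup1 (0.032), Wdr7 (0.038) and Slc25a14 (0.061). With 4 arrays many genes share a pattern, and these distances are a description.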

How the data were processed

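Gene expression was measured on 4 Affymetrix arrays, 1 per group; total RNA of sorted cells was isolated by TRIzol and labelled as biotin cRNA, per the labels' protocols. The deposited unit is intensity, linear, from GCOS per the submitters' processing notes; each array has a median of 1, and the algorithm is not given in the sources used here. Each array was multiplied to a 2% trimmed mean of 500 (factors 50 to 68). An offset of 22, the median signal of 54 probe sets of 27 genes of other tissues, was added before log2; their 90th percentile set the detection level. Log2 folds are on this scale and understate changes of dim genes. Of the 45101 probe sets, 34958 had 1 gene symbol, 932 several and 9211 none; RefSeq identifiers changed 0 symbols, and 0 columns were left unused. Coordinates are those of the RefSeq windows alone.

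The GC-naive contrast was fitted in limma 3.58.1 under R 4.3.3. The model held tissue as a block and an intensity trend, and p-values were adjusted by Benjamini-Hochberg over the 15398 probe sets tested. The test had 1 residual degree of freedom and an infinite prior, so the probe sets' own spread had no weight. In 20 simulations over 15398 probe sets, 100 were changed at each size. A median of 8 changed by a log2 fold of 1 and 79.5 changed by 2 were recovered, and a median of 5.02% of calls were false. The noise was drawn from the error that the fit assumes, so this false share was set in advance by the threshold. Far fewer probe sets were changed than the 55.5% called here, and no 3' bias was simulated. These shares therefore do not carry over to the calls above. Comparisons of single arrays have no test. The number of arrays limits the precision, and p-values reflect only the spread of the GC-naive fold between the tissues, pooled over probe sets.

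The 10 genes and the lists were chosen with earlier results of these data known. All probe sets of the 10 genes are accounted for; from each wider list up to 4 called probe sets by size of fold are named, with other probe sets of the named genes for comparison. The St3gal2, St6galnac2, St6galnac4 and Spn values were named outside this rule, after they were seen. Nearest genes were taken for Cmah and St3gal1 as 3 each, with no limit on range. Alternatives covered scaling, filter, background list, offset, block, trend, probe set choice and each array left out, where a lone array is assumed to vary like the pair of the other group; the list without Mbp and the test without moderation were added after the data were seen.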

Additional observations from a re-analysis of the deposited data

Results flagged for a closer look

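For 6 of the 15 tested probe sets, the GC-naive fold pointed one way in pLN and the other way in PP. Each tissue gave 1 GC and 1 naive array, so none of these differences was tested, and none of the 6 was called over both tissues. Without the share of opposite signs over all tested probe sets, the count of 6 cannot be called unusual. The difference of the fold, PP minus pLN on the log2 scale, was -1.55 for Gcnt1 1449538_a_at and -0.89 for Gcnt1 1460431_at. It was -0.68 for Cmah 1421214_at, -0.68 for St3gal6 1449079_s_at, -0.53 for St6gal1 1420928_at and 0.41 for Cmah 1436039_at. In all but Cmah 1436039_at the naive PP array held the highest of the 4 signals. Those folds were positive in pLN and negative in PP, so only naive PP or GC pLN could hold it. The naive PP array also had the highest 3'/5' ratio of Gapdh, 96.4, and the part of this bias in the folds was not tested.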

How the results depend on the processing

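Of the 5 called enzyme probe sets, all kept their direction and call under the 3 other scalings, both offsets, both background lists, no filter, signals floored at the level, no tissue block and no trend. With only probe sets above the level on all 4 arrays, 10 enzyme probe sets were tested, none of them among the 5. Of these 10, 0 were called higher and 0 lower, beside 23.2% and 22% of all probe sets tested. At an unadjusted p under 0.05 (limma) 1 was higher and 0 lower, a cut for which no share over all is given. Of the wider lists 7 were higher and 9 lower. Without moderation 0 and 0 enzyme probe sets and 0 and 0 of the wider lists were called. With the brightest probe set per gene, 0 of 8 enzyme genes were higher and 1 lower (St3gal1), beside 24.9% and 27.3% of all genes tested. In that fit 7 genes of the wider lists were higher. When the probe sets of each gene were averaged, 2 of 8 enzyme genes were higher (C1galt1 and St6gal1) and 1 lower (St3gal1), beside 30.7% and 19.9% of all. Enzyme probe sets called higher numbered 4 of 27 without the filter, beside 15.2% of all. Without Gh, Prm1 and Mbp they numbered 4 of 24, beside 31.5% of all. Leaving out 1 array, which also drops the block, leaves 1 array in a group, so only effect sizes are given for these fits. Not all of the 5 calls held in each of them. The share of all probe sets called fell without either GC array and rose without naive pLN. A call gained or lost in these fits is therefore no result on a single gene. Fewer features were tested under the stricter filter and per gene, and the cause of these shifts was not tested.

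Differences near 0 changed sign. St6gal1 1420928_at was -0.11 at the deposited median, -0.03 without GC pLN and -0.17 without naive pLN. Cmah 1436039_at was -0.13 at the deposited median, -0.23 with quantile normalization, -0.12 after cyclic loess and -0.19 without naive PP, and Cmah 1421214_at was 0.15 without naive PP. Gcnt1 1460431_at was 0.06 with quantile normalization, 0.21 after cyclic loess, 0.12 without GC PP and 0.15 without naive PP. Scaling at the deposited median put the median fold of all probe sets at -0.03, beside 0.11, and quantile normalization at -0.06; the shares called higher and lower were then 28.5% and 28.8%.

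Counts of enzyme probe sets at 2-fold moved as follows. Shares over all probe sets are not given at these settings, so the counts are descriptions. Without the filter, 5 were higher and 5 lower in GC cells of pLN, 8 higher in PP, 1 higher in PP in GC cells and 4 lower in PP in naive cells. Above the level on all 4 arrays, 0 were higher and 0 lower in GC cells of pLN, 1 higher and 1 lower in PP, 0 lower in PP in GC cells, and 1 higher and 0 lower in PP in naive cells. Without Gh and Prm1, 5 were higher in GC cells of pLN and 6 in PP, and without Mbp too, 5 and 7. At 3-fold, 3 were lower in GC cells of PP, 0 lower in PP in GC cells, and 0 higher and 0 lower in PP in naive cells; at 1.5-fold, the last were 4 and 3. At the deposited median 0 were higher and 3 lower in PP in naive cells. No paired analysis was possible because each group is 1 array with no replicate number; tissue was the block instead. No scaling to the spike-in controls was run: their median signal was 4092 and 3964 on the GC pLN and GC PP arrays, against 7500 and 15677 on the naive arrays, so all directions are relative to the bulk of signals on each array. Signals under the detection level limit what can be said of C1galt1c1 and St3gal4.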
